A study of Homo sapiens with 21 samples.

Results

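Nonhomologous end joining is the pathway that rejoins broken DNA ends without a template, and its expression was followed here through 10 genes: XRCC5, XRCC6, PRKDC, DCLRE1C, XRCC4, LIG4, NHEJ1, TP53BP1, POLL and POLM. They were chosen by name as the core factors of the pathway, with earlier results of these data known. Each was found on 1 row of a table of 23368 genes, of which 19694 varied between libraries and were tested. All 10 were among the tested genes. Over the 6 comparisons of treated with untreated cells the 10 genes gave 60 tests, of which 27 were called lower and 11 higher, where the share of all tested genes ran from 9.72% to 19.9% lower and from 7.47% to 26.2% higher over the 6 comparisons. The largest difference had a size of 0.57 on the log2 scale.

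When both strands of DNA break, the ring formed by Ku70 (XRCC6) and Ku80 (XRCC5) slides onto each end and recruits the kinase DNA-PKcs (PRKDC), which holds the ends together and switches on the nuclease Artemis (DCLRE1C). The ends are trimmed, filled in where needed by the polymerases lambda (POLL) and mu (POLM), and sealed by DNA ligase IV (LIG4) in a complex with XRCC4 and XLF (NHEJ1). The chromatin protein 53BP1 (TP53BP1) gathers around breaks, limits the cutting back of ends that homologous recombination needs, and also binds p53.

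The cells were hTERT-HPNE, a pancreatic line immortalised with telomerase and not transformed, grown as a bulk culture in medium with puromycin. RNA was sequenced from 7 groups of 3 biological replicates, 21 libraries in all: untreated cells collected at 0 h, cells given 300 µM H2O2, which causes oxidative stress, and cells given 400 ng/ml neocarzinostatin (NCS), a radiomimetic drug that cuts both DNA strands, each collected at 4, 8 and 24 h. Fresh medium was given at treatment and no untreated group was collected at the later times, so the effect of a treatment and that of hours in culture cannot be told apart in a comparison with untreated cells, whereas H2O2 and NCS were compared at matched times. The sources do not say whether the RNA came from the parental line or from a reporter clone.

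The values are regularised log2 values (rLog), a log2 scale of normalised read counts on which small counts are pulled towards the gene's mean, so that differences of weakly expressed genes are understated. Read depth is unknown from such values. The median over tested genes lay between 7.14 and 7.19 in all 21 libraries. The 5 p53 targets used to check the treatments, CDKN1A, MDM2, BTG2, GDF15 and FDXR, were called higher in all 6 treated groups, by 0.36 (FDXR, H2O2 4 h) to 3.25 (GDF15, H2O2 24 h). Of 6 duct and epithelial markers, KRT18 (11.64 in untreated cells) and KRT8 (7.78) stood above the library medians and KRT7 (6.74) and CDH1 (3.77) below them. KRT19 (0.60) and EPCAM (-1.77) were lower still, where the lowest value of the table was -2.31. The 4 mesenchymal and progenitor markers ran from 12.12 (NES) to 20.13 (FN1). Of 4 acinar markers PRSS1 and CELA3A were listed at 0 in every library and CPA1 (-2.18) and CPB1 (0.94) were low, and of 3 islet markers INS was at 0 and GCG (-1.90) and SST (-2.18) were low. Of 3 immune markers CD3E was at 0 and PTPRC low (0.94), while CD68, which is not limited to macrophages, stood at 9.97, and the 3 endothelial markers ran from -2.04 (CDH5) to 3.07 (VWF). Levels are not per transcript length, so apart from this rough check of markers they are compared between groups and not between genes. In such bulk RNA, fewer cells of a kind and less RNA per cell cannot be told apart. The p-values set each difference against a spread between these libraries that was estimated in a joint fit of all 7 groups.

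The promoter windows of 5 of the genes are given because these genes moved in different directions below: XRCC4 and XRCC6 were lower at 24 h, TP53BP1 was lower at 4 h and higher at 24 h, and the polymerase genes POLL and POLM were higher at 4 and 8 h of NCS. Each window is the 250 bases before the annotated transcription start, from RefSeq on GRCh38.p14, read along the gene's strand. They lie at chr5:83077297-83077546 (XRCC4, plus strand), chr22:41621045-41621294 (XRCC6, plus), chr15:43510641-43510890 (TP53BP1, minus), chr10:101588271-101588520 (POLL, minus) and chr7:44082531-44082780 (POLM, minus), and the capitals mark matches on either strand to a CCAAT box (CCAAT) or a GC box (GGGCGG), where neighbouring GC box matches may overlap.
XRCC4: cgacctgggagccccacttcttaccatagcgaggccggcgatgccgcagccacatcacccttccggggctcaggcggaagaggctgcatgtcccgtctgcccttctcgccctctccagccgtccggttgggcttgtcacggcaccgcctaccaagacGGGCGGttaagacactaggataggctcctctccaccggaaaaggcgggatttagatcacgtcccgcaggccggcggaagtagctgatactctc
XRCC6: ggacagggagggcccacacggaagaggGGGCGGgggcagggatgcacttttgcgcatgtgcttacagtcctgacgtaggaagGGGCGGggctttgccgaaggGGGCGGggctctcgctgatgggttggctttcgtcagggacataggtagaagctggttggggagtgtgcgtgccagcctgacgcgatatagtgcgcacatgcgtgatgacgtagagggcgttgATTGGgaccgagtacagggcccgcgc
TP53BP1: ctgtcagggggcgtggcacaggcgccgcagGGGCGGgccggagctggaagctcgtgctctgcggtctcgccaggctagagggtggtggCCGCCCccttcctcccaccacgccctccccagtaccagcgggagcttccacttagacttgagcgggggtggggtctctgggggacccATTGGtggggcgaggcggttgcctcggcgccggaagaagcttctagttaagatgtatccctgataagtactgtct
POLL: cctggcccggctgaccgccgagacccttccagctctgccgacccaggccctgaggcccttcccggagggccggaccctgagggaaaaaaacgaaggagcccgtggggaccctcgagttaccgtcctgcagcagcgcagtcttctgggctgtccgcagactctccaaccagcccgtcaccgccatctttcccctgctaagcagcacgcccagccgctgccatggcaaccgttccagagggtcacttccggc
POLM: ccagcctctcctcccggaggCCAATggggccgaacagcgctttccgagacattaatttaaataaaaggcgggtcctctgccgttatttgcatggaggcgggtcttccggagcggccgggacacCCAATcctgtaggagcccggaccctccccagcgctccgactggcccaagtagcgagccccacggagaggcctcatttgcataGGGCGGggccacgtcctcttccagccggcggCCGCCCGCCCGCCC

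The same search was made in the windows of 8 of the 10 genes (at the first start listed where there were several), with both strands read and matches to different motifs free to overlap. A GC box was present in 6 of the 8 (XRCC4, XRCC6, DCLRE1C, NHEJ1, TP53BP1 and POLM) and in 42.6% of all 35116 windows of that length. A CCAAT box was present in 4 (XRCC6, DCLRE1C, TP53BP1 and POLM) and in 32.0% of all windows. POLL, whose values followed those of POLM, had neither. An AP-1 motif (TGANTCA) was found in DCLRE1C alone, against 6.57% of all windows. At that start none of the 8 held an E2F motif (TTTGGCGC, TTTCGCGC or TTTCCCGC, 2.32% of all windows), an antioxidant response element (TGACNNNGC, 10.9%), a cAMP response element (TGACGTCA, 1.65%) or the decamer of which a full p53 site holds a pair (5.57%). At other listed starts LIG4 had a cAMP response element in 2 of its 5 windows (starts 3 and 4), which also held a GC box. Starts 2 and 5 of LIG4 held a CCAAT box. DCLRE1C had an antioxidant response element in 1 of its 2 windows (start 2), which held no AP-1 motif. These matches describe letters in a window, not bound sites.

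At 24 h most of the 10 genes stood apart from untreated cells in both treatments. H2O2 at 24 h had 5 of 10 called lower (XRCC4, XRCC5, XRCC6, PRKDC and DCLRE1C), against 19.9% of all tested genes, and 3 called higher (TP53BP1, POLL and POLM), against 20.2%. NCS at 24 h had 6 called lower (the same 5 and NHEJ1), against 18.4% of all tested genes, and 2 called higher (TP53BP1 and POLL), against 19.6%. The median of the 10 log2 differences was -0.19 in H2O2 and -0.26 in NCS, beside -0.00034 and -0.00014 over all tested genes. A call is an adjusted p under 0.05 in limma with Benjamini-Hochberg adjustment over all 19694 genes. All 8 calls of each treatment at 24 h held under every alternative setting and with each library left out in turn.

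**Figure D1:**
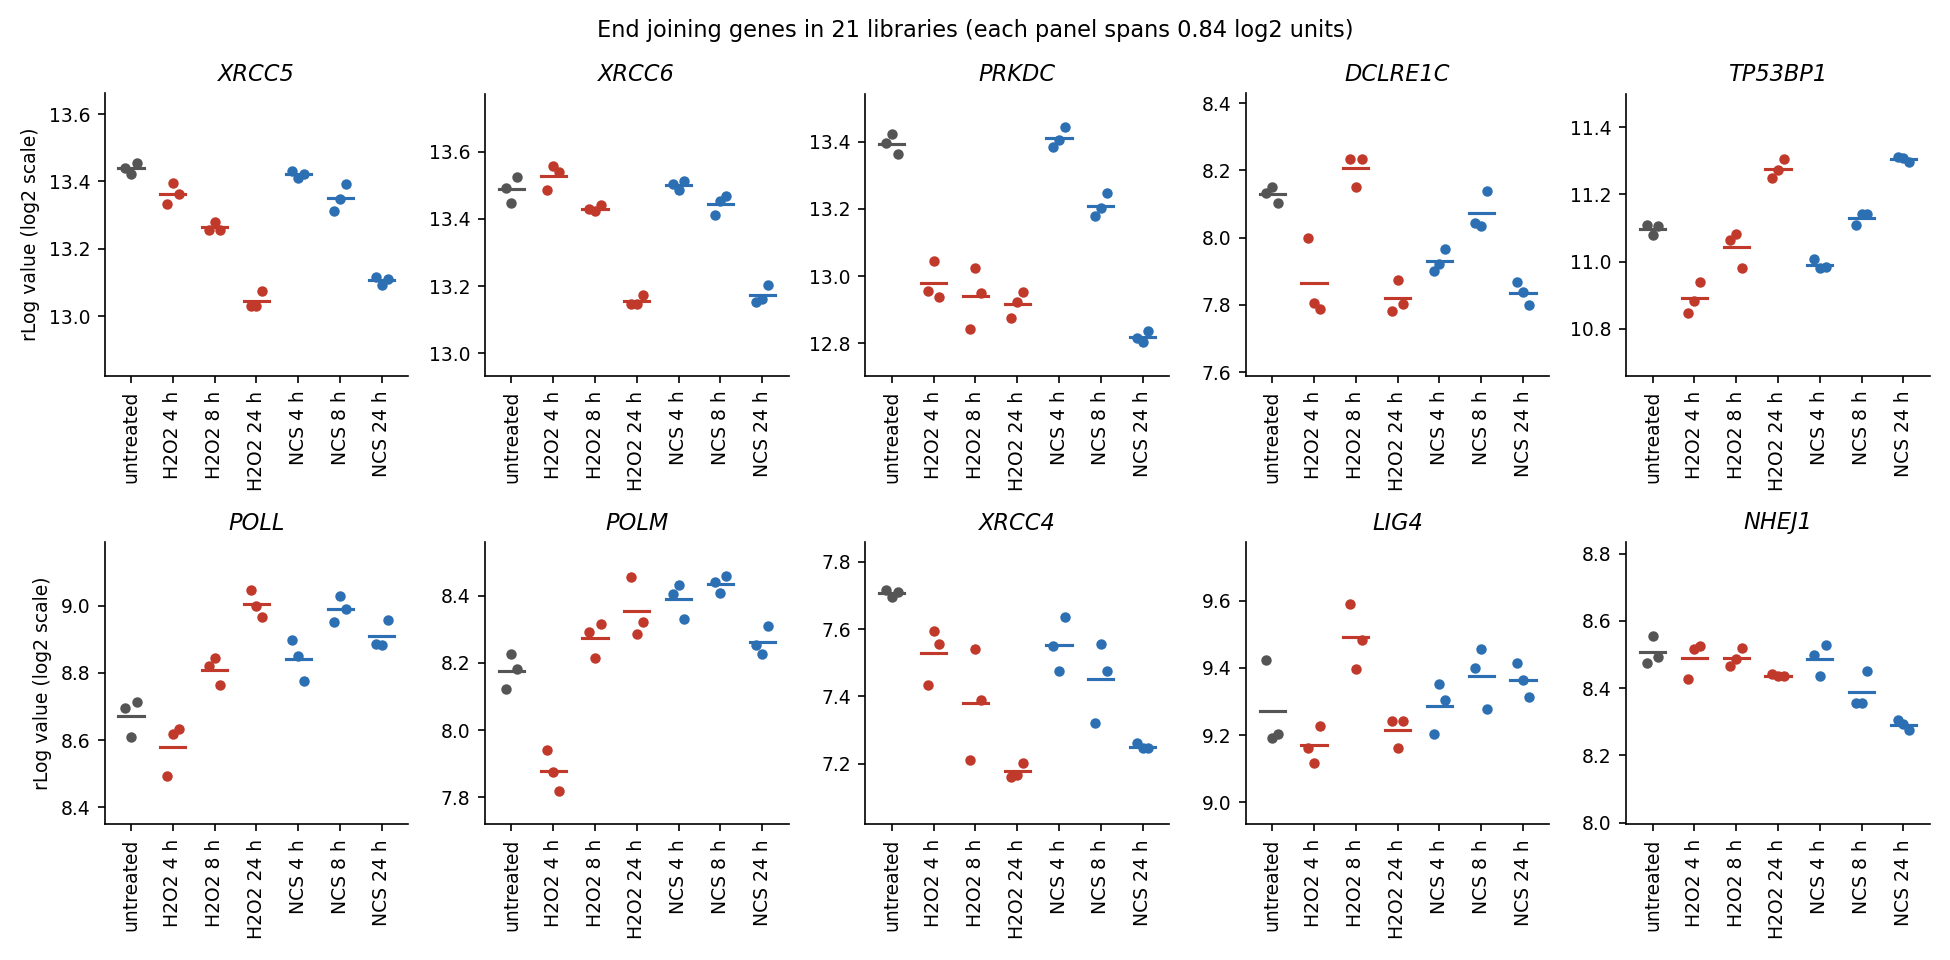
rLog values (log2 scale) of the 10 genes in each of the 21 libraries, with points for libraries and lines for group means (grey untreated, red H2O2, blue NCS), each panel spanning the same number of log2 units around its own gene. XRCC5, XRCC6 and XRCC4 were lowest at 24 h in both treatments, TP53BP1 was highest there, and PRKDC was already near 13 at 4 h in H2O2 but not in NCS.

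At 4 h the treatments were unlike. H2O2 had 6 of 10 called lower (XRCC4, XRCC5, PRKDC, DCLRE1C, TP53BP1 and POLM), against 19.7% of all tested genes, and none called higher, against 26.2%, and in limma no member had an unadjusted p under 0.05 in that direction either. NCS had 2 called lower (DCLRE1C and TP53BP1), against 9.72%, and 2 called higher (POLL and POLM), against 7.47%. The median difference was -0.14 in H2O2 and -0.0024 in NCS, beside 0.0038 and -0.00033 over all tested genes.

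At 8 h H2O2 had 4 called lower (XRCC4, XRCC5, XRCC6 and PRKDC), against 18.6% of all tested genes, and 2 called higher (LIG4 and POLL), against 18.8%. NCS had 4 called lower (XRCC4, XRCC5, PRKDC and NHEJ1), against 13.3%, and 2 called higher (POLL and POLM), against 10.5%. The medians were -0.036 and -0.050. None of the 10 genes differed by more than 1 log2 unit in any of the 9 comparisons between untreated, H2O2 and NCS groups, a size that 2.62% of tested genes passed in at least 1 of them with an adjusted p under 0.05.

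**Figure D2:**
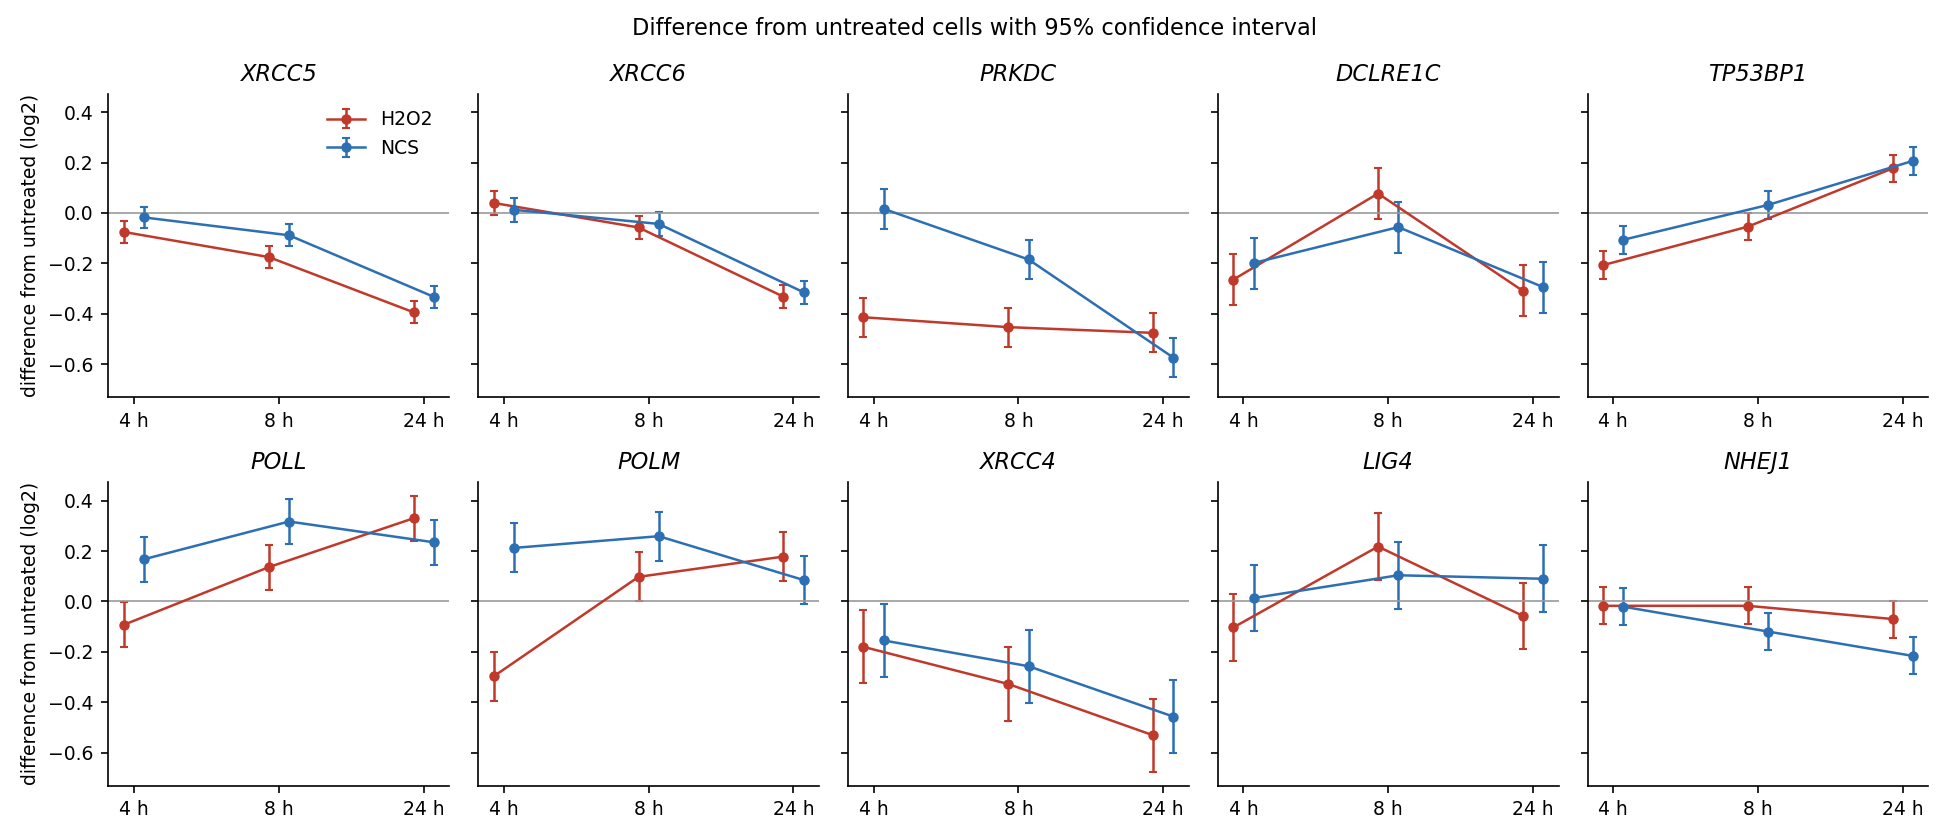
Log2 difference from untreated cells for each gene at 4, 8 and 24 h (evenly spaced), in red for H2O2 and blue for NCS, with 95% confidence intervals of the limma fit that are not adjusted for the number of genes. XRCC5, XRCC6 and XRCC4 moved down over time in both treatments, PRKDC separated the treatments at 4 h (-0.41 against 0.016), and POLM had opposite signs at 4 h (-0.30 and 0.21).

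Both Ku genes were lowest at 24 h, and XRCC5 was called lower earlier as well. XRCC5, which encodes Ku80, read 13.44, 13.42 and 13.45 in the untreated libraries, 13.03, 13.03 and 13.07 at 24 h of H2O2, and 13.12, 13.09 and 13.11 at 24 h of NCS. The treated libraries all lay below the untreated ones. The log2 difference was -0.39 ± 0.021 (SE, n = 3 against 3, adjusted p = 1.3e-11) in H2O2, 76.1% of the untreated level, and -0.33 ± 0.021 (adjusted p = 1.66e-10) in NCS, 79.4% of it.

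XRCC5 was already lower at 4 h of H2O2. It read 13.33, 13.39 and 13.36 at 4 h of H2O2 and 13.43, 13.41 and 13.42 at 4 h of NCS, where the NCS libraries overlapped the untreated ones. The difference from untreated was -0.075 in H2O2 (adjusted p = 0.00558) and -0.018 in NCS (adjusted p = 0.723, 95% interval -0.061 to 0.026). At 8 h it was -0.17 in H2O2 (adjusted p = 1.71e-06) and -0.089 in NCS (adjusted p = 0.00326). The H2O2 minus NCS difference was -0.058, -0.086 and -0.061 at 4, 8 and 24 h, each of them called (adjusted p = 0.0288, 0.00276 and 0.0396), with groups that did not overlap. The calls at 4 h (lost without H2O2 4 h replicate 1 or 3 or NCS 4 h replicate 1 or 3, with differences of -0.073 to -0.042 over the libraries left out) and at 24 h (lost without H2O2 24 h replicate 1 or 2 or any NCS 24 h replicate, -0.076 to -0.054) depended on single libraries. The 24 h call was also lost under quantile normalisation, at -0.0033, and, like that at 8 h (adjusted p = 0.0571), when only the groups compared were fitted.

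XRCC6, which encodes Ku70, read 13.49, 13.45 and 13.52 in untreated cells and 13.49, 13.56 and 13.54 at 4 h of H2O2, so these groups overlapped. At 24 h it read 13.15, 13.15 and 13.17 in H2O2 and 13.15, 13.16 and 13.20 in NCS, below every library of the other times. The log2 difference at 24 h was -0.33 ± 0.022 (SE, n = 3 against 3, adjusted p = 4.67e-10) in H2O2 and -0.31 ± 0.022 (adjusted p = 1.14e-09) in NCS, 79.4% and 80.4% of the untreated level.

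Between the treatments XRCC6 passed no test: at 4, 8 and 24 h in turn the H2O2 minus NCS difference was 0.027 (95% interval -0.020 to 0.074), -0.014 (-0.061 to 0.033) and -0.017 (-0.064 to 0.029). Its call at 8 h of H2O2 (-0.057, adjusted p = 0.0499) was lost without untreated replicate 1 or 3 or any H2O2 8 h replicate (differences of -0.077 to -0.039, adjusted p = 0.0125 to 0.232 over all settings). Without H2O2 4 h replicate 1 its difference at 4 h of H2O2 was called (0.061). The annotation lists 5 processed copies of XRCC6 by name, and 1 of DCLRE1C. How reads shared with such copies were counted is not given in the sources used here.

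PRKDC, the gene of DNA-PKcs, showed the widest range of group means of the 10 genes, 0.59 log2 units. It read 13.39, 13.42 and 13.36 in untreated cells and 12.96, 13.05 and 12.94 after 4 h of H2O2. After 4 h of NCS it read 13.38, 13.40 and 13.44. The H2O2 libraries lay below all others of that time, and the NCS libraries overlapped the untreated ones. H2O2 at 4 h differed from untreated by -0.41 ± 0.037 (SE, n = 3 against 3, adjusted p = 4.67e-08), 75.1% of the untreated level, and NCS by 0.016 ± 0.037 (adjusted p = 0.939, 95% interval -0.062 to 0.094).

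By 24 h the order of the treatments had crossed. In H2O2 the PRKDC values were 12.84, 13.03 and 12.95 at 8 h and 12.88, 12.92 and 12.95 at 24 h, overlapping those at 4 h, with a 24 h minus 4 h difference of -0.062 (adjusted p = 0.17). In NCS they were 13.18, 13.20 and 13.25 at 8 h and 12.82, 12.80 and 12.84 at 24 h, each time below the time before. At 24 h the difference from untreated was -0.48 (adjusted p = 4.17e-09) in H2O2 and -0.57 (adjusted p = 3.17e-10) in NCS, 71.9% and 67.2% of the untreated level. The H2O2 minus NCS difference was -0.43 (adjusted p = 2.88e-08) at 4 h, -0.27 (adjusted p = 1.58e-05) at 8 h and 0.098 (adjusted p = 0.0678, 95% interval 0.021 to 0.176) at 24 h, where every H2O2 library lay above every NCS library. This last difference was called under quantile normalisation, with the replicate block, with a minimum mean of 5 and when only the groups compared were fitted (0.073 to 0.142, adjusted p = 0.0162 to 0.225 over all settings).

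DCLRE1C, the gene of the Artemis nuclease, was called lower at 4 and 24 h in both treatments and did not pass the test at 8 h. It read 8.13, 8.15 and 8.10 in untreated cells, 8.00, 7.81 and 7.79 at 4 h of H2O2, 8.23, 8.15 and 8.23 at 8 h, and 7.78, 7.87 and 7.80 at 24 h. Under NCS the 4 h libraries read 7.90, 7.92 and 7.97, the 8 h libraries 8.04, 8.03 and 8.14, and the 24 h libraries 7.87, 7.84 and 7.80. Every library at 4 and 24 h lay below every untreated one.

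The log2 differences of DCLRE1C from untreated in H2O2 were -0.26 ± 0.048 (SE, n = 3 against 3, adjusted p = 0.000176) at 4 h, 0.077 (adjusted p = 0.243) at 8 h and -0.31 (adjusted p = 3.11e-05) at 24 h, and in NCS they were -0.20 (adjusted p = 0.00655), -0.056 (adjusted p = 0.515) and -0.29 (adjusted p = 5.82e-05). At 8 h it was higher in H2O2 than in NCS by 0.13 (adjusted p = 0.0391), a call lost without H2O2 8 h replicate 1 or 3 or NCS 8 h replicate 1 or 2 (differences of 0.114 to 0.167). At 4 h the H2O2 minus NCS difference of -0.066 (adjusted p = 0.296) was called without H2O2 4 h replicate 1, at -0.13. Of 6326 exonic bases of DCLRE1C, 159 are shared with SUV39H2 on the opposite strand, a histone methyltransferase gene that was itself called lower in all 6 comparisons, with log2 differences of -0.36, -0.47 and -0.95 at 4, 8 and 24 h of H2O2 and -0.20, -0.46 and -1.03 of NCS, also at 8 h, when DCLRE1C passed no test. The strand setting of the counting is not given in the sources used here, and its part in the DCLRE1C values was not tested.

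In the ligation complex XRCC4 fell in both treatments, NHEJ1 was called lower in NCS, and LIG4 gave 1 call. XRCC4, the scaffold that stabilises ligase IV, read 7.72, 7.70 and 7.71 in untreated cells, 7.16, 7.17 and 7.20 at 24 h of H2O2, and 7.26, 7.25 and 7.25 at 24 h of NCS. The log2 difference was -0.53 ± 0.069 (SE, n = 3 against 3, adjusted p = 3.8e-06) in H2O2, 69.2% of the untreated level, and -0.46 ± 0.069 (adjusted p = 2.44e-05) in NCS, 72.8% of it. The treatments did not pass a test against each other at any time, and the 95% intervals of H2O2 minus NCS at 4, 8 and 24 h were -0.171 to 0.120, -0.216 to 0.075 and -0.219 to 0.071.

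At the earlier times the XRCC4 replicates were more spread. It read 7.43, 7.59 and 7.56 at 4 h and 7.21, 7.54 and 7.39 at 8 h of H2O2, and 7.55, 7.48 and 7.63 at 4 h and 7.32, 7.56 and 7.48 at 8 h of NCS, all below the untreated libraries. The difference from untreated was -0.18 (adjusted p = 0.0404) and -0.33 (adjusted p = 0.000849) in H2O2, and -0.15 (adjusted p = 0.154) and -0.26 (adjusted p = 0.00956) in NCS. The H2O2 call at 4 h was lost without any 1 of the untreated replicates or without H2O2 4 h replicate 1 or 3 (differences of -0.21 to -0.13), and the NCS call at 8 h without NCS 8 h replicate 1 (-0.19).

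LIG4, the gene of the ligase itself, passed the test in 1 of the 6 comparisons with untreated cells. It read 9.42, 9.19 and 9.20 in untreated cells and 9.59, 9.40 and 9.48 at 8 h of H2O2, so that untreated replicate 1 overlapped the treated group. The difference was 0.22 ± 0.063 (SE, n = 3 against 3, adjusted p = 0.00983), and the call was lost without untreated replicate 2 or 3 or H2O2 8 h replicate 1, with differences of 0.17 to 0.29 over the libraries left out. Its other 5 differences ran from -0.10 (H2O2 4 h) to 0.10 (NCS 8 h) with overlapping groups. Without untreated replicate 1 those in NCS at 8 and 24 h were called, at 0.18 and 0.17. At 24 h every H2O2 library (9.16 to 9.24) lay below every NCS library (9.31 to 9.41). The H2O2 minus NCS difference there was -0.15 (adjusted p = 0.114 in limma). It was called with aligned library medians, with a minimum mean of 5 and when only the groups compared were fitted (adjusted p = 0.015 to 0.303 over all settings). At 8 h that difference was 0.11 (adjusted p = 0.189), called with aligned library medians.

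NHEJ1, the gene of XLF, fell in NCS. It read 8.47, 8.55 and 8.49 in untreated cells, 8.35, 8.36 and 8.45 at 8 h of NCS and 8.31, 8.29 and 8.27 at 24 h of NCS. At 24 h of H2O2 it read 8.44 in all 3 libraries, above every NCS library of that time. The difference from untreated was -0.22 ± 0.035 (SE, n = 3 against 3, adjusted p = 5.11e-05) at 24 h of NCS and -0.070 (adjusted p = 0.133, 95% interval -0.143 to 0.004) at 24 h of H2O2.

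The H2O2 minus NCS difference of NHEJ1 at 24 h was 0.15 (adjusted p = 0.00468) and held under every alternative. At 8 h it was 0.10 (adjusted p = 0.0296), a call lost without H2O2 8 h replicate 3 or NCS 8 h replicate 1 or 2 (differences of 0.086 to 0.134). The call at 8 h of NCS against untreated (-0.12, adjusted p = 0.0164) was lost without untreated replicate 2 or NCS 8 h replicate 1 or 2 (-0.151 to -0.096). In the reference annotation 2034 of 3109 exonic bases of NHEJ1 are shared with AC068946.1 on the same strand, so reads there may have been split or dropped.

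TP53BP1 was called lower at 4 h and higher at 24 h in both treatments. It read 11.11, 11.08 and 11.11 in untreated cells, 10.85, 10.88 and 10.94 at 4 h of H2O2 and 11.01, 10.98 and 10.99 at 4 h of NCS. At 24 h it read 11.25, 11.27 and 11.30 in H2O2 and 11.31, 11.31 and 11.29 in NCS. The 4 h libraries all lay below the untreated ones and the 24 h libraries all above them.

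The log2 difference of TP53BP1 was -0.21 ± 0.026 (SE, n = 3 against 3, adjusted p = 3.22e-06) at 4 h and 0.18 (adjusted p = 1.71e-05) at 24 h of H2O2, and -0.11 (adjusted p = 0.00727) and 0.21 (adjusted p = 2.86e-06) in NCS, 113% and 115% of the untreated level at 24 h. The call at 4 h of NCS was lost under quantile normalisation (-0.078, adjusted p = 0.0559, against 0.00452 to 0.0559 over all settings). At 8 h neither treatment passed the test (-0.054, adjusted p = 0.119, and 0.032, adjusted p = 0.485), though without H2O2 8 h replicate 2 the H2O2 difference was called, at -0.074. The H2O2 minus NCS difference was -0.10 and -0.086 at the earlier times, 4 and 8 h (adjusted p = 0.00403 and 0.0151). The call at 8 h was lost without H2O2 8 h replicate 3 or NCS 8 h replicate 2 or 3 (-0.106 to -0.055). TP53BP1 shares 3732 of 12991 exonic bases with TUBGCP4 on the opposite strand, a gamma-tubulin complex gene. In H2O2 TUBGCP4 was called lower at 4 h (-0.11, adjusted p = 0.034), the direction of TP53BP1 at that time, at 8 h (-0.12, adjusted p = 0.0266) and at 24 h (-0.20), and in NCS it was called lower at 24 h (-0.28) and not at 4 h (0.036) or 8 h (-0.070). At 24 h its direction was opposite to that of TP53BP1, and its part in the TP53BP1 values was not tested.

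The genes of the end-filling polymerases were both called higher at 4 and 8 h of NCS and at 24 h of H2O2, and POLL at 24 h of NCS too. POLL, the gene of polymerase lambda, read 8.70, 8.61 and 8.71 in untreated cells, 8.90, 8.85 and 8.78 at 4 h of NCS, 8.95, 9.03 and 8.99 at 8 h and 8.88, 8.88 and 8.96 at 24 h. Under H2O2 the 4 h libraries read 8.49, 8.62 and 8.63, the 8 h libraries 8.82, 8.85 and 8.76, and the 24 h libraries 9.05, 8.999 and 8.97. The NCS libraries lay above the untreated ones at every time, and those of H2O2 at 8 and 24 h.

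The log2 difference of POLL from untreated in NCS was 0.17 ± 0.042 (SE, n = 3 against 3, adjusted p = 0.00893) at 4 h, 0.32 (adjusted p = 1.42e-05) at 8 h and 0.24 (adjusted p = 0.000168) at 24 h. In H2O2 it was -0.092 (adjusted p = 0.086) at 4 h, 0.14 (adjusted p = 0.0159) at 8 h and 0.33 (adjusted p = 3.26e-06) at 24 h, 126% of the untreated level. The calls at 4 h of NCS (lost without untreated replicate 2 or NCS 4 h replicate 1, differences of 0.14 to 0.20) and at 8 h of H2O2 (lost without untreated replicate 2 or H2O2 8 h replicate 2, 0.10 to 0.16) depended on single libraries, and without untreated replicate 2 the difference at 4 h of H2O2 was called, at -0.12. POLL shares 243 of 5420 exonic bases with DPCD on the opposite strand. DPCD was called higher at 24 h of H2O2 (0.21, adjusted p = 0.00129) and NCS (0.23, adjusted p = 0.000789), the direction of POLL at that time. It passed no test at 4 h (0.014 in each) or at 8 h (0.019 in H2O2 and 0.062 in NCS). Its part in the POLL values was not tested.

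POLM, the gene of polymerase mu, moved in opposite directions at 4 h. It read 8.12, 8.23 and 8.18 in untreated cells, 7.94, 7.88 and 7.82 at 4 h of H2O2 and 8.40, 8.43 and 8.33 at 4 h of NCS, with no overlap among the 3 groups. The difference from untreated was -0.30 ± 0.046 (SE, n = 3 against 3, adjusted p = 3.34e-05) in H2O2, 81.4% of the untreated level, and 0.21 ± 0.046 (adjusted p = 0.00278) in NCS, 116% of it.

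At 8 h POLM read 8.29, 8.21 and 8.32 in H2O2 and 8.44, 8.41 and 8.46 in NCS, with differences from untreated of 0.098 (adjusted p = 0.111) and 0.26 (adjusted p = 0.000299). At 24 h it read 8.46, 8.29 and 8.32 in H2O2 and 8.25, 8.22 and 8.31 in NCS, with differences of 0.18 (adjusted p = 0.00399) and 0.085 (adjusted p = 0.172), and the 24 h NCS libraries overlapped the untreated ones. Both polymerase genes held their 24 h calls in H2O2 under every alternative.

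Set against each other at matched times, the treatments differed most in POLM and PRKDC at 4 h. In the full fit the most calls came at 8 h and the fewest at 24 h. At 8 h 3 of 7 calls held in every setting, against 4 of 5 at 4 h and 1 of 2 at 24 h. XRCC5 and DCLRE1C had their largest differences at 8 h, and XRCC4, LIG4 and NHEJ1 at 24 h. At 4 h 5 of the 10 genes were called lower in H2O2 than in NCS (POLM, PRKDC, POLL, TP53BP1 and XRCC5), against 18.0% of all tested genes, and none higher, against 26.3%, where in limma no member had an unadjusted p under 0.05 in that direction. At 8 h 5 were called lower (the same genes), against 15.4%, and 2 higher (DCLRE1C and NHEJ1), against 18.7%. At 24 h XRCC5 was called lower, 1 of 10 against 10.9%, and NHEJ1 higher, 1 of 10 against 11.0%.

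At 4, 8 and 24 h the median of the 10 H2O2 minus NCS differences was -0.083, -0.078 and -0.016, beside 0.0051, -8e-05 and -0.00028 over all tested genes. The 2 largest at 4 h were POLM, -0.51 (95% interval -0.607 to -0.413, adjusted p = 5.36e-08), and PRKDC, -0.43 (-0.508 to -0.352), followed by POLL, -0.26 (-0.349 to -0.171, adjusted p = 6.01e-05). All 3 genes were also called lower in H2O2 at 8 h, POLM at -0.16 (adjusted p = 0.0103) and POLL at -0.18 (adjusted p = 0.00246). These calls of POLM, PRKDC and POLL held under every alternative.

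**Figure D3:**
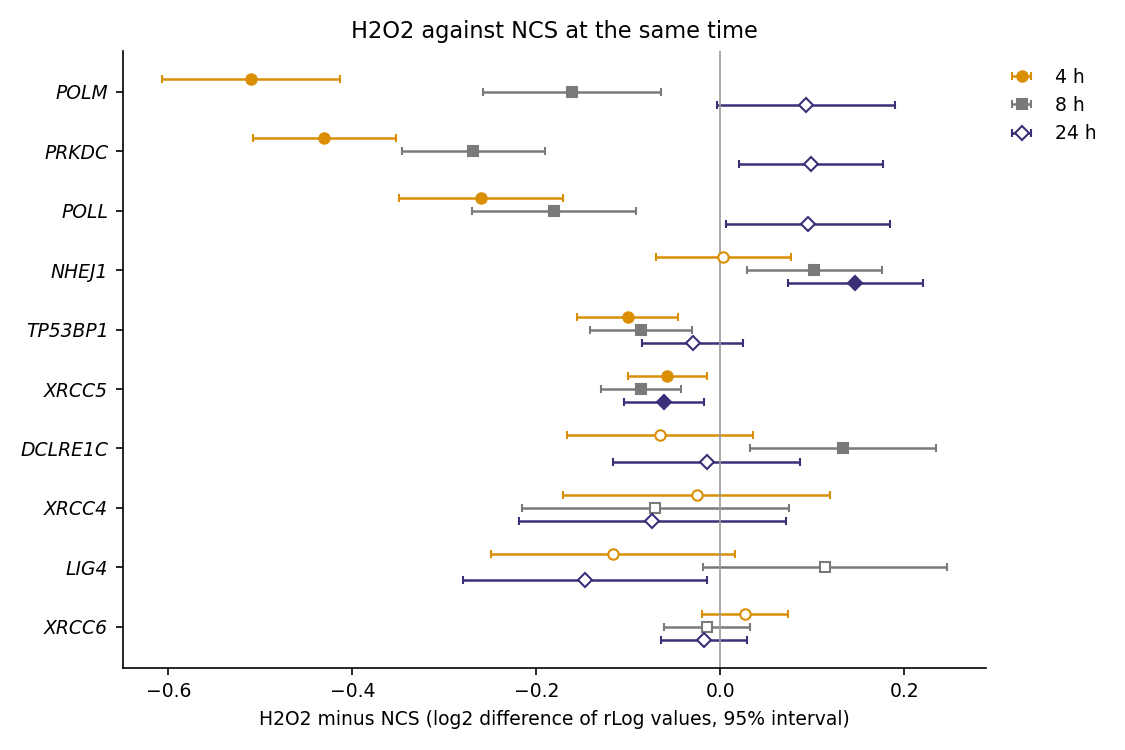
H2O2 minus NCS log2 difference of each gene at 4 h (orange circles), 8 h (grey squares) and 24 h (blue diamonds), with unadjusted 95% confidence intervals; filled symbols passed an adjusted p of 0.05 and open ones did not. POLM, PRKDC and POLL lay left of 0 at 4 and 8 h and right of it at 24 h, where none of the 3 passed the test.

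The change of the H2O2 minus NCS difference between 4 and 24 h was tested as an interaction. It was called for 4 of the 10 genes, all higher, against 16.6% of all tested genes called higher, and for none lower, against 22.7%, with no member at an unadjusted p under 0.05 in that direction in limma. The change was 0.60 ± 0.065 (SE, adjusted p = 9.43e-07) for POLM, 0.53 ± 0.052 (adjusted p = 3.32e-07) for PRKDC, 0.36 ± 0.060 (adjusted p = 0.00012) for POLL and 0.14 ± 0.049 (adjusted p = 0.0277) for NHEJ1. The first 3 held under every alternative. The Ku genes gave -0.0035 (XRCC5, 95% interval -0.065 to 0.058) and -0.044 (XRCC6, -0.110 to 0.022), and XRCC4 gave -0.049 (-0.254 to 0.157). For TP53BP1 the change of 0.071 (adjusted p = 0.142) was called without H2O2 4 h replicate 3, at 0.095.

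Within each treatment the members also moved between 4 and 24 h, a comparison that does not use the untreated libraries. In H2O2 3 were called higher at 24 h than at 4 h, POLM by 0.48, POLL by 0.42 and TP53BP1 by 0.38, against 23.1% of all tested genes, and 3 lower (XRCC6 -0.37, XRCC4 -0.35 and XRCC5 -0.32), against 32.4%. In NCS 1 was called higher (TP53BP1, 0.31), against 19.5%, and 6 lower, against 18.8%: PRKDC (-0.59), XRCC6 (-0.33), XRCC5 (-0.32), XRCC4 (-0.30), NHEJ1 (-0.20) and POLM (-0.13). The POLM call in NCS (adjusted p = 0.0353) was lost without NCS 4 h replicate 1 or 2 or NCS 24 h replicate 1 or 2 (-0.157 to -0.106), and also with aligned library medians and under quantile normalisation (as small as -0.066, adjusted p up to 0.323). Between 4 and 24 h XRCC5, XRCC6, XRCC4 and TP53BP1 thus had calls of 1 direction in both treatments.

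The other genes around the pathway had list medians nearer to 0 at 24 h where they process ends. Of 13 processing and accessory factors, H2O2 at 24 h had 3 called higher and 5 lower (median difference 0.028), against 20.2% and 19.9% of all tested genes, and NCS 3 higher and 5 lower (median -0.00012), against 19.6% and 18.4%. TDP1, which removes topoisomerase remnants from DNA ends, was at -0.90 in H2O2 and -0.79 in NCS, and PARP3, a break sensor, was higher by 0.59 in NCS. The PARP3 mean at 24 h of H2O2 was 9.67, against 9.31 in untreated cells. Of the 7 listed partners of 53BP1 that were matched (SHLD3 was not), 4 were called lower in each treatment at 24 h, against 19.9% (H2O2) and 18.4% (NCS) of all tested genes, among them PAXIP1 (-0.58 in H2O2 and -0.72 in NCS), which binds 53BP1 through its BRCT domains, and RIF1 (-0.54 in NCS), which protects ends downstream of it. RIF1 averaged 10.39 at 24 h of H2O2, against 10.88 in untreated cells. TP53BP1 itself was called higher at 24 h in both treatments. Of 8 genes that signal breaks, 5 were called lower and 1 higher at 24 h in each treatment (19.9% and 20.2% of all tested genes in H2O2, 18.4% and 19.6% in NCS), with the histone gene H2AX at -1.47 and -1.56 and the end-trimming nuclease gene MRE11 at -0.67 and -0.70; at 4 h of H2O2 7 of the 8 were lower (median -0.20), against 19.7%.

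The list of alternative end joining, the backup route that uses short repeats at the ends, had medians further from 0 at 24 h. All 8 of its listed genes were called lower at 24 h in both treatments, against 19.9% (H2O2) and 18.4% (NCS) of all tested genes, with a median of -0.81 in H2O2 and -0.87 in NCS, against -0.19 and -0.26 for the 10 core genes. POLQ, the polymerase that defines this route, was at -1.47 and -1.62, FEN1, a flap nuclease also used in replication, at -1.57 and -1.59, LIG1, the replicative ligase, at -0.97 and -0.92, and RBBP8, which starts end trimming, at -0.91 in NCS. PARP1, a sensor of DNA breaks, was at -0.89 in H2O2. In the other treatment at 24 h, RBBP8 averaged 9.27 (H2O2) and PARP1 11.42 (NCS), against 9.99 and 12.25 in untreated cells. Not every gene of the list moved so far. LIG3 averaged 9.40 at 24 h of each treatment, against 9.55 in untreated cells. XRCC1 averaged 9.91 (H2O2) and 9.85 (NCS), against 10.29. At 4 h 7 of the 8 were lower in H2O2 (median -0.20), against 19.7%, and 2 lower and 1 higher in NCS (median -0.031), against 9.72% and 7.47%.

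Genes of dividing cells fell in the same libraries. All 8 proliferation genes were called lower at 24 h, against 19.9% (H2O2) and 18.4% (NCS) of all tested genes, with a median of -1.67 in H2O2 and -1.85 in NCS, MKI67 being at -2.51 and -2.73. At 4 h 4 were lower and 1 higher in H2O2 (median -0.20), against 19.7% and 26.2%, and 5 lower and 1 higher in NCS (median -0.59), against 9.72% and 7.47%. At 8 h 7 were lower and 1 higher in each (medians -0.81 and -0.89), against 18.6% and 18.8% in H2O2 and 13.3% and 10.5% in NCS. Their part in the lower values of the end joining genes was not tested. Between the treatments at 4 h, 3 of the 8 were called higher in H2O2 than in NCS, against 26.3% of all tested genes, and 1 lower, against 18.0%, with a median of 0.14. The mitosis genes PLK1 and CCNB1 were higher by 0.94 and 0.54 there.

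**Figure D4:**
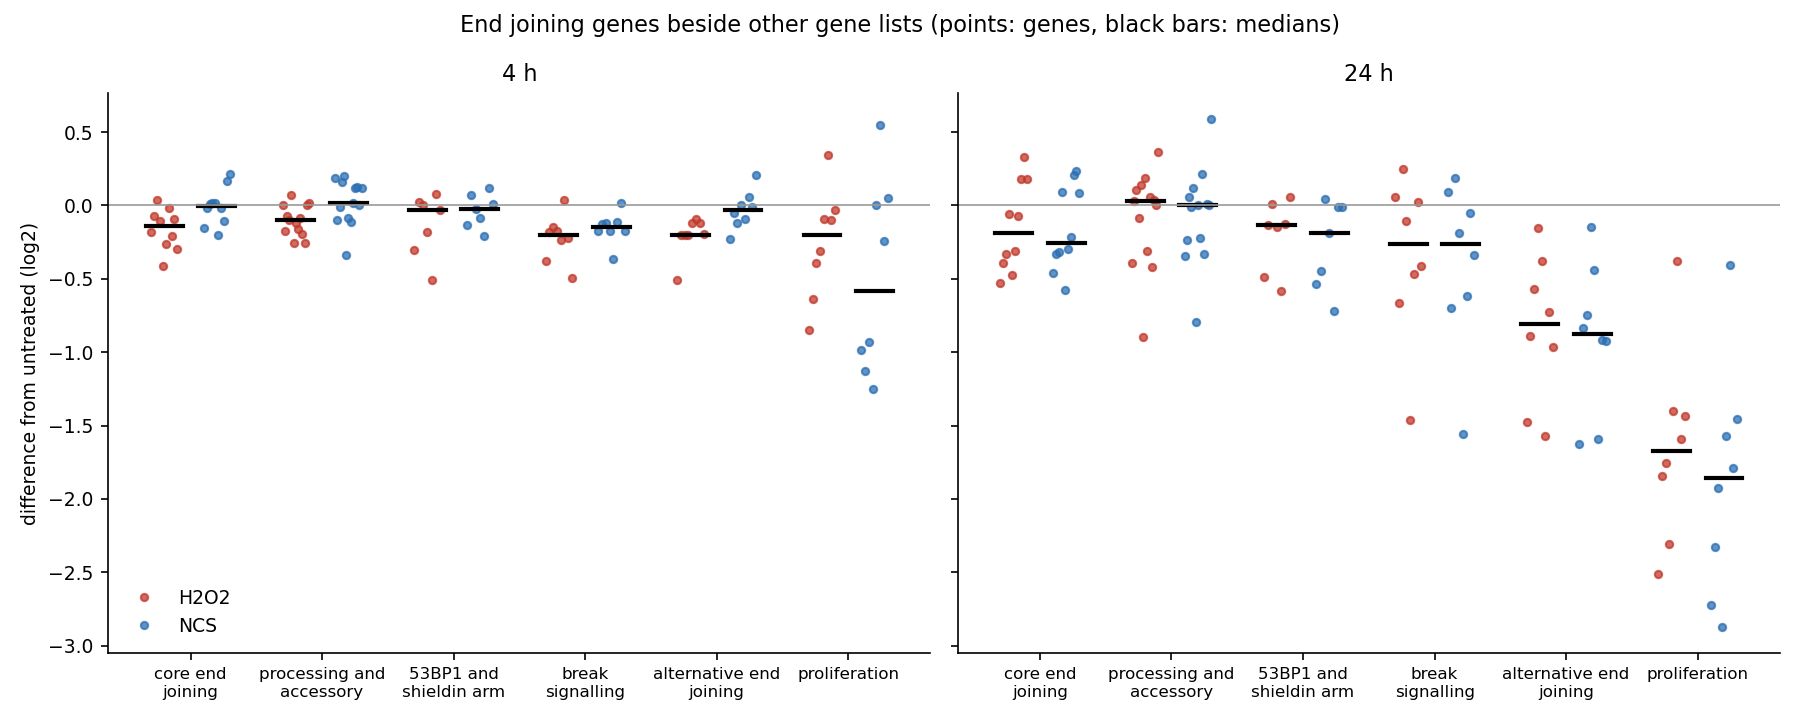
Log2 difference from untreated cells at 4 h (left) and 24 h (right) of each gene in 6 lists (points, red H2O2 and blue NCS), with black bars for list medians. At 24 h the core end joining genes stayed within 0.57 of 0, while the alternative end joining and proliferation lists had medians of -0.81 to -1.85.

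Across the 7 group means, the members fell into patterns, described here with no test. XRCC5 went with XRCC4 (Pearson r = 0.96) and XRCC6 (0.957), XRCC4 with XRCC6 (0.882), POLL with POLM (0.873), and TP53BP1 ran against XRCC6 (-0.911). For PRKDC, the gene with the widest range, the 5 most similar of 8071 genes with a range of at least 0.5 times its own were ZNF681 (r = 0.987), CAD (0.987), RBM12B (0.986), RGS12 (0.981) and CDAN1 (0.980). All these r values share the same 21 libraries and rest on 7 points.

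Ordered by level, XRCC4 and XRCC5 had the same order of groups, from H2O2 24 h at the bottom through NCS 24 h, H2O2 8 h, NCS 8 h, H2O2 4 h and NCS 4 h to untreated cells at the top. In XRCC5 the neighbours overlapped only between NCS 8 h and H2O2 4 h and between NCS 4 h and untreated cells, whereas in XRCC4 4 of the 6 neighbouring pairs overlapped. LIG4 overlapped between all neighbours in its order. POLM ran from H2O2 4 h, which stood apart, through untreated, NCS 24 h, H2O2 8 h, H2O2 24 h and NCS 4 h to NCS 8 h, with every later pair of neighbours overlapping.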

How the data were processed

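RNA from 21 cultures of hTERT-HPNE cells (7 groups of 3 biological replicates) was prepared by the authors with a stranded mRNA kit, aligned with HISAT2 at default settings and counted with htseq-count. The deposited values are log2 values, the authors' rLog transform in DESeq2, in 1 table of 23368 genes; the submitters' processing notes name hg19. The annotation and strand setting are not given in the sources used here. Groups were taken from the sample labels.

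The members and gene lists were chosen with earlier results of these data known. All 10 members are named. Of other lists, genes with an adjusted p under 0.05 and an absolute difference of at least 0.5 are named (at most 4 per list and comparison). The p53 targets, MKI67, LIG3 and XRCC1 are named as well, and by group-mean pattern the 5 genes nearest to PRKDC. Genes with 1 value in every library (3674) were left out. On the other 19694, limma 3.58.1 (R 4.3.3) fitted the 7 groups together (eBayes with trend), and 12 comparisons were each adjusted by Benjamini-Hochberg; intervals are at 95%. The script was tested on simulated data. An exact two-sided permutation test of 3 against 3 cannot go below 0.1, so no such p is given. Percentages of the untreated level are 2 to the power of the log2 difference. The table lists 28 names turned into dates and 2 names more than once, none of them a member. Older symbols were used for PAXX, CYREN, ERCC6L2, SHLD1, SHLD2, MRE11 and H2AX. Alternatives were aligned library medians, quantile normalisation, a minimum mean of 5, no filter, only the groups compared, no trend, the replicate number as a block, and fits without each library. Shared exonic bases come from a GRCh38 annotation and promoters from RefSeq on GRCh38.p14; no coordinates were taken between builds. XRCC5 and PRKDC promoters are not used here.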

Additional observations from a re-analysis of the deposited data

Results flagged for a closer look

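For 4 genes the difference between the treatments at 24 h was itself tested as different from that at 4 h and passed in limma (adjusted p under 0.05). PRKDC changed by 0.529, with all 3 H2O2 libraries below all 3 NCS libraries at 4 h and above them at 24 h. POLM changed by 0.603, from groups apart at 4 h to overlapping groups at 24 h. POLL changed by 0.356, with H2O2 below NCS in all 3 libraries at 4 h and above in all 3 at 24 h. NHEJ1 changed by 0.143, from overlapping groups at 4 h to H2O2 above NCS in all 3 libraries at 24 h, and its call was lost with aligned medians (adjusted p = 0.103), quantile normalisation (0.504) or a minimum mean of 5 (0.0534), and without H2O2 4 h replicate 1, NCS 4 h replicate 1 or 3, or NCS 24 h replicate 3, within a range of 0.0144 to 0.504 over all settings. Groups of 3 libraries were not tested for single outlying values. At 8 h of H2O2, replicate 2 lay nearest to untreated cells in CDKN1A, MDM2, BTG2, GDF15, FDXR and MKI67. GDF15 read 12.40, 11.71 and 12.35 in replicates 1 to 3 there, and MKI67 11.75, 12.15 and 11.75. Among the members replicate 2 was also nearest, except in XRCC6, NHEJ1 and POLL. Without that replicate the calls of XRCC6 and POLL at 8 h of H2O2 against untreated cells were lost, and TP53BP1 was called (-0.074). No other member call at 8 h changed when it was left out.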

How the results depend on the processing

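Of 1620 values recomputed, 1494 kept their direction and side of the threshold, 70 lost and 19 gained a call, and 37 changed sign, all of them differences that had not passed the test (largest 0.075). Of 69 member calls 53 held throughout, including all 16 at 24 h against untreated cells. Fitting only the groups compared gave 3 members for H2O2 at 8 h (6 in the full fit) and 3 for H2O2 against NCS at 8 h (7). In every comparison such a fit estimates the spread from the compared libraries alone. That fit lost the calls of XRCC6, LIG4 and POLL (H2O2 8 h), POLL (NCS 4 h), NHEJ1 (NCS 8 h), XRCC5, DCLRE1C, NHEJ1 and TP53BP1 (H2O2 against NCS at 8 h) and XRCC5 (at 24 h). Aligned medians lost XRCC6 (H2O2 8 h) and TP53BP1 (H2O2 against NCS at 8 h), and keeping invariant genes lost XRCC6 (H2O2 8 h) and XRCC4 (H2O2 4 h), the latter also lost under quantile normalisation. With a minimum mean of 5, H2O2 against NCS at 24 h gave 4 members (2). Leaving out 1 library gave 4 to 7 members for H2O2 against NCS at 8 h and 1 to 2 at 24 h. Quantile normalisation turned NHEJ1 in H2O2 at 4 h (0.050) and 8 h (0.0084), PRKDC in NCS at 4 h (-0.0010) and in H2O2 between 4 and 24 h (0.039), XRCC6 in H2O2 against NCS at 4 h (-0.0065) and 24 h (0.022), and, in the change of that difference, XRCC5 (0.075), XRCC6 (0.029) and DCLRE1C (-0.022). Aligned medians turned XRCC6 in NCS at 4 h (-0.00013) and in H2O2 against NCS at 8 h (0.0074). The cause was not tested.

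Leaving out 1 library, differences that crossed 0 spanned: against untreated, NHEJ1 -0.035 to 0.014 (H2O2 4 h), -0.034 to 0.0067 (H2O2 8 h) and -0.041 to 0.0054 (NCS 4 h), LIG4 -0.097 to 0.018 (H2O2 24 h) and -0.027 to 0.089 (NCS 4 h), XRCC6 -0.0073 to 0.031 and PRKDC -9.3e-05 to 0.031 (NCS 4 h); H2O2 against NCS, XRCC4 -0.064 to 0.021 (4 h) and -0.150 to 0.014 (8 h), NHEJ1 -0.023 to 0.034 (4 h), DCLRE1C -0.042 to 0.0036 (24 h); DCLRE1C in H2O2 between 4 and 24 h -0.082 to 0.022; and the change of the treatment difference, XRCC5 -0.019 to 0.012 and LIG4 -0.063 to 0.012.

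The labels number the replicates and name no pairing. Deviations from each group's mean had a mean correlation of 0.027 (-0.149 to 0.213) between same-numbered libraries and -0.014 between different ones. The highest mean of a pair of groups was 0.14 (H2O2 8 h and NCS 8 h, 0.038 to 0.192). Deviations within a group sum to 0, so these means are not independent and cannot decide whether replicates were paired. With the replicate block PRKDC in H2O2 against NCS at 24 h was called (0.098, adjusted p = 0.0396, 0.0162 to 0.225 over all settings) and no other member call changed. Depth is unknown, and rLog pulls small counts together, so differences of weakly expressed genes are least certain. The 0 h control leaves time in culture and treatment confounded.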
